A study of Homo sapiens with 8 samples.

Results

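The entries described here are the miRNA genes of the deposited tables numbered MIR4417 to MIR4540, with letter and copy suffixes allowed and with MIR4420, MIR4443 and MIR4461 left out. They were found by symbol alone and number 109 of the 2709 non-coding RNA features in each table. Small RNA was sequenced from MEC-1, an established human B-cell line from a chronic lymphocytic leukaemia, and from exosomes, the small membrane vesicles those cells release into the medium. There were 5 exosome libraries and 3 cell libraries, all of this 1 line and with no treatment named. It was grown in bioreactors with calf serum, whose own vesicles were removed from the medium except in the upper compartment, and exosomes were pelleted by ultracentrifugation with a density cushion. The study's design text says that 3 of the exosome samples have a paired cell sample but does not name them. The labels do not say whether libraries of a group are separate cultures; each p-value therefore reflects library-to-library spread that could be technical.

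A miRNA gene is transcribed as a hairpin, which Drosha and Dicer cut to a short duplex, and 1 strand is then held by an Argonaute protein. Bases 2 to 8 of that strand, the seed, largely set which messenger RNAs it pairs with. Many entries of this number block came into the miRNA registry from deep sequencing of normal and malignant human B cells, and for most of them little is known of their function. Late entries often rest on few reads and on 1 strand of the hairpin.

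Of the 109 entries, 86 have a hairpin and 97 a mature sequence in the RefSeq table used here (GRCh38.p14). Only 1 mature strand is listed for 89.7% of those 97, against 24.8% for the older miRNAs MIR1 to MIR499 with let-7, 75.5% for MIR3000 to MIR4416 and 49.3% for MIR4541 and above. Of 102 distinct mature sequences in the block, 25 are shorter than 20 bases (24.5%), against 0.998% in the older class, 22.2% in MIR3000 to MIR4416 and 3.53% in MIR4541 and above. The median GC content was 52.7% in the block, 47.6% in the older class, 52.8% in MIR3000 to MIR4416, 50% in MIR4541 and above and 52.2% over the whole table. The median folding energy per hairpin base, predicted by RNAfold, was -0.498 kcal per mol in the block, -0.436 in the older class, -0.484 in MIR3000 to MIR4416 and -0.522 in MIR4541 and above. The mature sequences that the results turn on are printed 5′ to 3′ with the seed in capitals. The first 5 belong to entries described below for their exosome and cell values, not all of them called. Among these, MIR4516 and MIR4518 were not in the main test and were picked after their values were seen. The next 7 belong to the other abundant entries, MIR4446 giving 2 strands. MIR4487, also abundant, has no mature sequence in the RefSeq table used.
MIR4497: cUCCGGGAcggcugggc
MIR4488: aGGGGGCGggcuccggcg
MIR4516: gGGAGAAGggucggggc
MIR4491: aAUGUGGAcuggugugaccaaa
MIR4518: gCUCAGGGaugauaacugugcugaga
MIR4437: uGGGCUCAggguacaaagguu
MIR4473: cUAGUGCUcuccguuacaagua
MIR4476: cAGGAAGGauuuagggacaggc
MIR4446, 5p strand: aUUUCCCUgccauucccuuggc
MIR4446, 3p strand: cAGGGCUGgcagugacaugggu
MIR4449: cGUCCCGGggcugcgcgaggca
MIR4466: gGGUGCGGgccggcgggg
The sequence of MIR4497 has 17 bases and 82.4% GC, that of MIR4488 18 bases and 88.9%, that of MIR4516 17 bases and 76.5%, that of MIR4466 18 bases and 94.4%, and that of MIR4449 22 bases and 81.8%. No 2 of these 12 sequences share a seed.

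Seeds were compared only with the strands the RefSeq table lists for the older class, MIR1 to MIR499 with let-7, and were rarely shared. Of the mature sequences in the block, 3 carry the seed of an older one: hsa-miR-4500 that of let-7 and miR-98 (9 older strands), hsa-miR-4429 that of miR-320b, c and d (3 strands), and hsa-miR-4465 that of miR-26a and miR-26b (2 strands). The sequences of the 2 with reads show the shared seed in capitals.
MIR4500: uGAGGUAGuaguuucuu
MIR4429: aAAAGCUGggcugagaggcg
Neither was abundant. MIR4500 had 1 read in exosome 5 and none in the other libraries, and MIR4429 had 6 reads in exosomes (0, 1, 1, 3 and 1 in exosomes 1 to 5) and none in cells. MIR4465 had no read. The letters GGAG, a motif linked to the sorting of miRNAs into vesicles, occur in 18 of the 102 mature sequences of the block (17.6%) and in 15.8% of the 2351 mature sequences of the table. The 13 tested entries with a mature sequence give 14 such sequences, and none of these holds the letters, that of MIR4497 included. Of untested entries with most of their reads in exosomes, MIR4516 has a mature sequence with them and MIR4435-1 has one without. The motif was not counted over the untested entries of either side. A match of letters is a description, and no binding was measured.

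Reads on the whole block were few, in exosomes and cells alike. Library totals ran from 23353820 to 32436286 reads in exosomes and from 25675636 to 57323598 in cells, which gave 142398292 exosome and 137460584 cell reads. All entries of the block together took 3890 of these, 1881 in exosomes and 2009 in cells. Exosomes 1 to 5 held 19.2, 7.83, 11.1, 20.7 and 9.81 RPM (reads per 1000000 library reads) on the block, and cells 1 to 3 held 23.6, 14.8 and 10.4. These are shares of all reads, so more vesicles or cells that carry a miRNA and more copies in each cannot be told apart. The groups overlapped: the mean was 13.7 ± 5.83 (SD, n = 5) in exosomes and 16.3 ± 6.72 (SD, n = 3) in cells. The exact 95% binomial (Clopper-Pearson) interval was 17.6 to 20.9 RPM in exosome 1 and 6.89 to 8.85 in exosome 2, so libraries of 1 group differed by more than counting error. Intervals and floors here cover counting error only, since the labels name no molecular identifiers. Among miRNA reads alone the block took 0.0202% ± 0.00288 in exosomes and 0.0196% ± 0.00411 in cells. The older class took 69946 ± 35199 RPM in exosomes and 82264 ± 32693 in cells.

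Many entries were never seen. No library had a read on 39 of the 109 entries (35.8%), 27 entries had 1 to 9 reads in all 8 libraries together, and 43 had 10 or more. Entries without any read were 12.5% of the older class, 37.2% of MIR500 to MIR2999, 38.1% of MIR3000 to MIR4416 and 31.9% of MIR4541 and above. Of the 70 entries with a read, 44 had reads in both groups, 12 in exosomes alone and 14 in cells alone. Only 9 entries had a read in every library (8.26%), against 57.4% of the older class, 15.6% of MIR500 to MIR2999, 13.1% of MIR3000 to MIR4416 and 3.98% of MIR4541 and above. The 3 entries that the selection leaves out each had more reads than any entry kept, the highest of which was MIR4491 with 636. MIR4420 had 723 reads (0 in exosomes and 723 in cells), MIR4443 had 1261 (28 and 1233) and MIR4461 had 4125 (2350 and 1775).

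Fewer entries were seen in exosome 5 and in cell 2 than in the other libraries of their groups. Exosomes 1 to 5 showed 35, 32, 41, 35 and 20 entries with at least 1 read, and cells 1 to 3 showed 49, 28 and 49. After every library was thinned to 23353820 reads, these counts were 34, 29, 39, 35 and 18 in exosomes and 47, 26 and 42 in cells. Depth differences therefore took away at most 7 entries from a library, and the order of the low libraries stayed. Exosome 5 and cell 2 were also the libraries with the lowest TMM scaling factors (0.524 and 0.552, against 0.905 to 1.46 in the others). Entries with at least 10 reads numbered 8 to 17 in exosome and 13 to 16 in cell libraries.

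**Figure D1:**
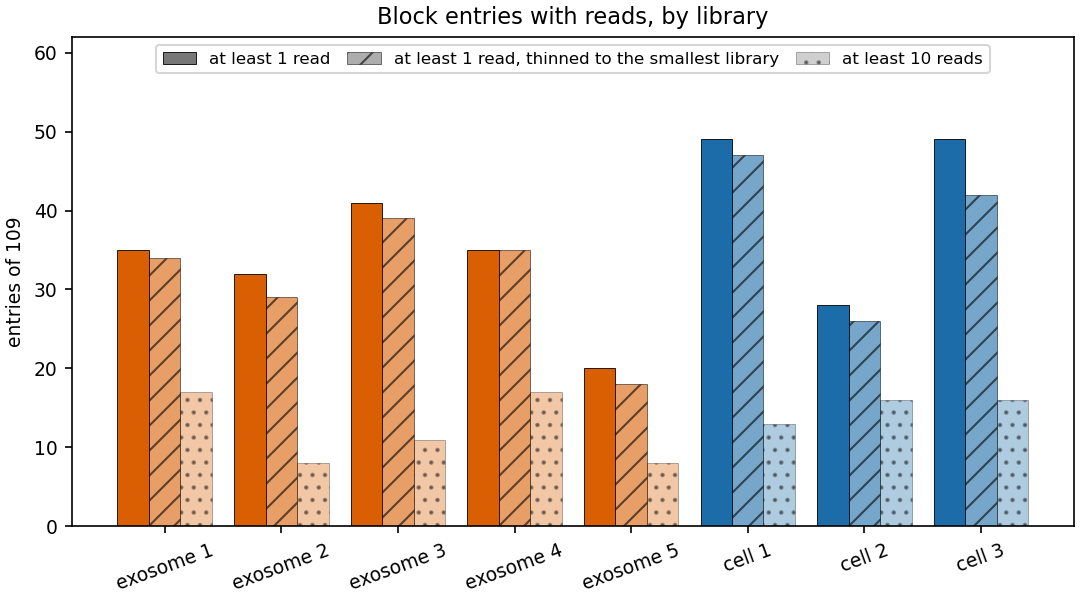
Number of block entries (of 109) with reads in each exosome (orange) and cell (blue) library: with at least 1 read, with at least 1 read after thinning to the smallest library total, and with at least 10 reads. Exosome 5 shows 20 entries and cell 2 shows 28, the lowest of their groups.

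The exosome to cell comparison asked which of these entries differ between vesicles and the cells that release them. It was made with edgeR's quasi-likelihood test over all features that passed the low-count filter, with Benjamini-Hochberg adjustment over those 1178 features. Of the 109 entries, 14 passed the filter and 95 did not, so the test covers only entries with enough reads in enough libraries. The 14 held 77.0% of the block's reads. In this test 1 of 14 entries was called higher in exosomes, MIR4497, and none was called lower. Of all tested features 42.8% were called, 20.5% higher and 22.3% lower. Among the entries that the selection leaves out, MIR4420 (edgeR adjusted p = 2.65e-05) and MIR4443 (edgeR adjusted p = 7.03e-05) were called lower in exosomes. Called features were 7.14% of the 14 tested entries of the block and 20.9% of the older miRNAs (172 tested). They were 14.3% of MIR500 to MIR2999 (84 tested), 33.3% of MIR3000 to MIR4416 (39 tested) and 9.52% of MIR4541 and above (21 tested). The shares were not compared by a test. The median log2 CPM was -0.51 in the block, 3.34 in the older class, 0.78 in MIR500 to MIR2999, -0.08 in MIR3000 to MIR4416, -1.03 in MIR4541 and above and 2.64 over all features. CPM means counts per 1000000 of the TMM-scaled library size. The median log2 fold change (exosome over cell) was -0.51 in the block and -0.09 over all features; 6 entries had a positive and 8 a negative value. At an unadjusted p under 0.05 stood 2 entries. Standard errors of the log2 values ran from 0.68 to 1.38.

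**Figure D2:**
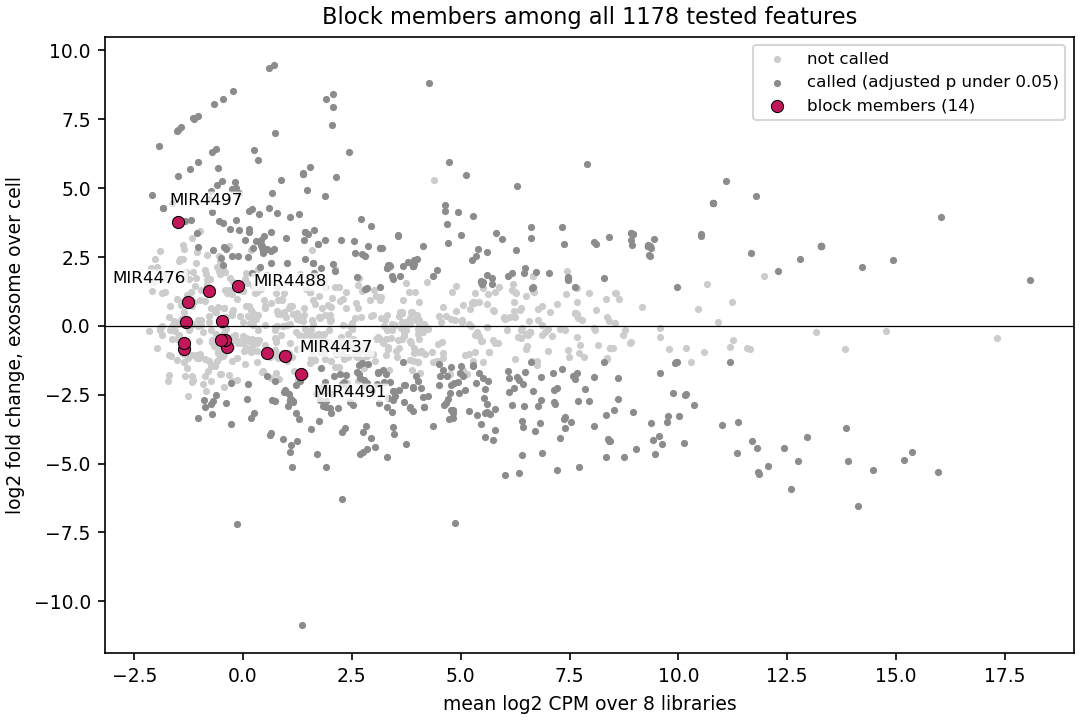
Log2 fold change of exosome over cell libraries against mean log2 CPM for 1178 tested features, with called features in dark grey and the 14 tested block entries in magenta. The block sits at the low end of abundance, and MIR4497, at 3.78, is the entry called.

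MIR4497 was the entry higher in exosomes. It lies on chromosome 12 at 110271153 to 110271241 on the plus strand (GRCh37, as the files give it), and in GENCODE 29 its hairpin overlaps an untranslated exon of TRPV4, a calcium-permeable cation channel gene, on the opposite strand. Exosomes 1 to 5 had 26, 7, 11, 9 and 13 reads and cells 1 to 3 had 1, 0 and 3. All exosome libraries lay above all cell libraries, as did 21.6% of the tested features. Mean abundance was 0.482 ± 0.342 CPM (SD, n = 5) in exosomes and 0.0284 ± 0.0289 CPM (SD, n = 3) in cells. The fitted log2 fold change was 3.78 (SE 1.20, edgeR adjusted p = 0.0183). From the pooled reads, 66 against 4, exosomes held 15.9 times as many for the same depth, with an exact 95% binomial interval of 5.94 to 60.2. The call was lost without cell 1 (log2 3.60, adjusted p = 0.0829) or without cell 2 (log2 3.22, adjusted p = 0.0697), and the value was 4.95 without cell 3. Exosomes 5 and 1 were its highest libraries, at 0.909 and 0.798 CPM, and the other exosomes lay between 0.200 and 0.264.

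MIR4488 had the next highest value among the tested entries and was not called. Its listed mature strand has 18 bases and is GC-rich. The feature on which reads were counted is the hairpin of 62 bases. It lies between annotated genes on chromosome 11 (61276068 to 61276129, plus strand). Exosomes 1 to 5 had 44, 42, 33, 26 and 25 reads and cells 1 to 3 had 18, 10 and 23. In CPM the groups did not overlap: exosomes ran from 0.723 to 1.75 and cells from 0.333 to 0.494. Mean abundance was 1.16 ± 0.428 CPM for exosomes against 0.423 ± 0.0824 CPM for cells (log2 1.43, SE 0.73, edgeR adjusted p = 0.126). Among the 14 entries, MIR4497 and MIR4488 were those whose groups did not overlap. No tested entry had every exosome library below every cell library, as 20.1% of the tested features had.

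MIR4491 was the most abundant entry and narrowly missed the threshold. It lies between genes on chromosome 11 (111218482 to 111218549, plus strand). Its hairpin is shown because the entry holds more reads than any other of the block, with the mature strand in capitals.
MIR4491 hairpin: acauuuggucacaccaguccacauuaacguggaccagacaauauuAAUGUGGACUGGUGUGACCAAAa
Exosomes 1 to 5 had 58, 27, 48, 36 and 27 reads and cells 1 to 3 had 157, 250 and 33. Cells 1 and 2 (4.31 and 8.32 CPM) were above every exosome library (0.770 to 1.89 CPM), and cell 3 (0.636 CPM) was below all of them. Its log2 fold change was -1.76 (SE 0.70, edgeR adjusted p = 0.0528). The entry passed without cell 3 (log2 -1.90, adjusted p = 0.0297), without exosome 5 (log2 -1.91, adjusted p = 0.0413) and with DESeq2 (log2 -1.75, adjusted p = 0.0342). It did not pass in the other 17 of 20 alternatives, among them without cell 2 (log2 -1.14, adjusted p = 0.255), with limma-voom (log2 -1.18, adjusted p = 0.239) and with total count scaling (log2 -1.42, adjusted p = 0.165). Its adjusted p ran from 0.0297 to 0.281 over these 20, and its log2 value was negative in each.

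Introns of MLLT3, PAX5 and HDAC4 each hold 2 entries of the block. Those of HDAC4, MIR4440 (0 exosome and 5 cell reads) and MIR4441 (17 and 5), did not pass the low-count filter. MIR4473 (chromosome 9, 20411146 to 20411236, minus strand) lies in an intron of MLLT3, a chromatin reader gene known as a fusion partner in acute leukaemia, on the same strand. It had 60, 31, 18, 42 and 10 reads in exosomes 1 to 5 and 116, 36 and 88 in cells 1 to 3, with a log2 value of -0.999 (SE 0.68, edgeR adjusted p = 0.256). The log2 value was -0.46 without exosome 3 and -1.41 without cell 2. MIR4474, from the same gene, had 16 reads in exosomes and 3 in cells. MIR4476 (chromosome 9, 36893459 to 36893528, minus strand) lies in an intron of PAX5, the transcription factor that holds B-cell identity, on the same strand. Its reads were 6, 0, 1, 23 and 39 in exosomes 1 to 5 and 6, 19 and 4 in cells 1 to 3 (log2 1.26, SE 1.38, edgeR adjusted p = 0.492), and its log2 value was -0.51 with limma-voom and 2.22 without cell 2. Exosomes 4 and 5 held most of the exosome reads. MIR4540, also in an intron of PAX5, had 2 reads, both in exosome 1.

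MIR4437 was high in 1 library of each group. It lies on chromosome 2 (182170320 to 182170379, minus strand), opposite an intron of the long non-coding gene LINC01934. Exosomes 1 to 5 had 20, 15, 9, 31 and 66 reads and cells 1 to 3 had 27, 192 and 72. In CPM, exosome 5 stood at 4.61 with the other exosomes at 0.197 to 0.909, and cell 2 stood at 6.39 with the other cells at 0.741 and 1.39. Its log2 value was -1.11 (SE 0.93, edgeR adjusted p = 0.363), 0.10 without cell 2 (adjusted p = 0.947) and -2.39 without exosome 5, where it passed (adjusted p = 0.0225). Exosome 5 and cell 2 are the libraries with the lowest scaling factors; without both the value was -1.03 (adjusted p = 0.292), and with total count and upper-quartile scaling it was -0.90 and -0.67.

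The other abundant entries overlapped between groups. MIR4446, in an intron of SIDT1, had 34, 23, 23, 20 and 0 reads in exosomes 1 to 5 and 22, 60 and 18 in cells 1 to 3 (log2 -0.78, SE 0.92, and 0.16 without cell 2). MIR4449, in an intron of the snoRNA host gene DANCR, had 29, 19, 62, 5 and 6 reads in exosomes and 11, 11 and 59 in cells (log2 0.16, SE 0.85, and -0.27 without cell 1 or -0.11 without cell 2). Exosome 3 and cell 3 were its highest libraries. MIR4466, opposite an intron of ARID1B, a subunit gene of a chromatin remodelling complex, had 18, 5, 8, 51 and 9 reads in exosomes and 17, 56 and 13 in cells (log2 -0.51, SE 0.92). Its sign turned with total count scaling (0.15), without exosome 3 (0.15) and without cell 2 (0.58). MIR4487 had 37, 10, 10, 22 and 7 reads in exosomes and 34, 20 and 39 in cells (log2 -0.50, SE 0.78, and 0.046 without exosome 3). The lowest edgeR adjusted p of these 4 was 0.525. The 4 tested entries with the most GC-rich mature strands thus had log2 values of 3.78 (MIR4497), 1.43 (MIR4488), 0.16 (MIR4449) and -0.51 (MIR4466).

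The remaining 4 tested entries were MIR4424 (45 exosome and 48 cell reads, log2 -0.85), MIR4425 (63 and 36, log2 0.15), MIR4444-1 (47 and 44, log2 -0.63) and MIR4477B (67 and 29, log2 0.87). None was called, and their edgeR adjusted p ran from 0.550 to 0.915. MIR4444-1 stands on chromosome 3 in the files and on another chromosome in the newer annotation, where both copies of this gene give the same mature strand, so its reads cannot be placed at 1 copy.

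**Figure D3:**
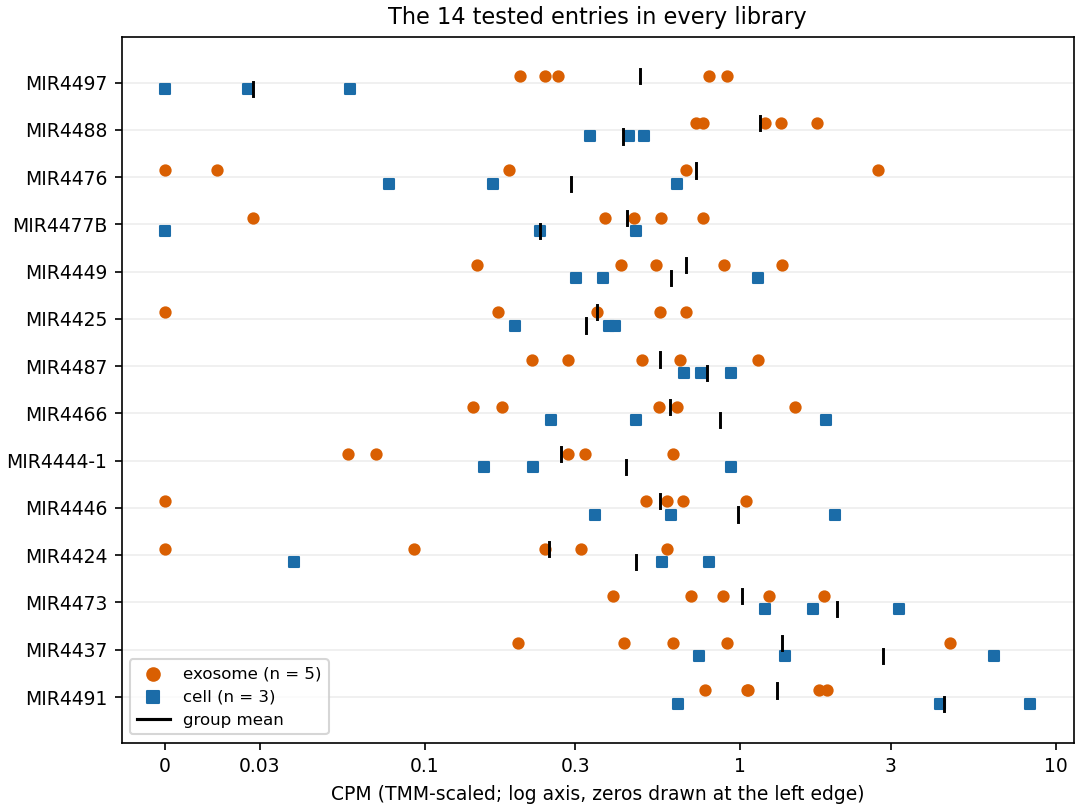
CPM of the 14 tested entries in each exosome (orange circles) and cell (blue squares) library on a log axis, with zeros at the left edge and the group mean as a black bar. MIR4497 and MIR4488 are the 2 entries whose exosome and cell libraries do not overlap.

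Some entries that the low-count filter removed had nearly all their reads on 1 side. These were picked after their values were seen, as entries with at least 10 reads in 1 group and at most 3 in the other: 8 leaned to exosomes and 7 to cells. Among all 2159 features with a read, 7.09% leaned to exosomes and 1.71% to cells by the same rule. On the cell side, MIR4518 lies in an intron of ITGAL (chromosome 16, 30515240 to 30515322, plus strand), the gene of the alpha chain of the leukocyte integrin LFA-1. Cells 1 to 3 had 17, 9 and 58 reads of it, exosome 2 had 1 and the other exosomes none. Pooled over libraries, cells held 87.0 times as many reads for the same depth, with an exact 95% binomial interval of 15.2 to 3477. MIR4505 had 19 reads in cells (2, 15 and 2) and none in exosomes, at least 6.56-fold higher when the exosome total is set to a floor of 3 counts over the group. By the same floor MIR4522 (11, 0 and 4 reads in cells 1 to 3) was at least 5.18-fold higher in cells, MIR4513 (4, 1 and 8) at least 4.49-fold and MIR4455 (4, 5 and 2) at least 3.80-fold. MIR4498 had 12 cell reads and 1 exosome read, and MIR4515 had 10 and 3.

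On the exosome side, most of the entries rested on 1 or 2 libraries. MIR4482-1 had 48 exosome reads, 40 of them in exosome 4, and 1 cell read. MIR4532 had 23, of which 21 came from exosome 4, and none in cells. MIR4435-1 and MIR4435-2, 2 copies of 1 miRNA, had identical counts in every library (1, 0, 1, 8 and 0 in exosomes 1 to 5, none in cells), so they are 1 measurement. The other 4 were MIR4419A (17 and 1 reads), MIR4472-2 (14 and 1), MIR4474 (16 and 3) and MIR4520A (11 and 3). MIR4516 lies opposite an intron of the polycystin gene PKD1 (chromosome 16, 2183120 to 2183205, plus strand). It had too many cell reads for this rule and had reads in every exosome library. It did not pass the low-count filter and was also picked after its values were seen. Exosomes 1 to 5 had 8, 8, 7, 12 and 21 reads of it and cells 1 to 3 had 0, 2 and 2. Every exosome library was above every cell library in CPM, as in 21.6% of the tested features, to which MIR4516 does not belong. Exosome 5 stood at 1.47 CPM and the other exosomes at 0.153 to 0.352. The pooled ratio of exosomes to cells was 13.5, with an exact 95% binomial interval of 4.99 to 51.3.

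Without the low-count filter, 70 entries entered edgeR's test and 9 were called. The 4 higher in exosomes were MIR4497 (log2 3.94, adjusted p = 0.023), MIR4516 (log2 3.86, adjusted p = 0.0275), MIR4482-1 (adjusted p = 0.0215) and MIR4532 (adjusted p = 0.0272). The 5 lower were MIR4518 (log2 -5.85, adjusted p = 0.000592), MIR4505 (adjusted p = 0.0145), MIR4522 (adjusted p = 0.0262), MIR4513 (adjusted p = 0.0385) and MIR4455 (adjusted p = 0.0419). Among all 2159 features of that fit, 15.1% were called higher and 12.2% lower. Fitted fold changes of entries with no read in a group depend on the prior count and are not given.

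**Figure D4:**
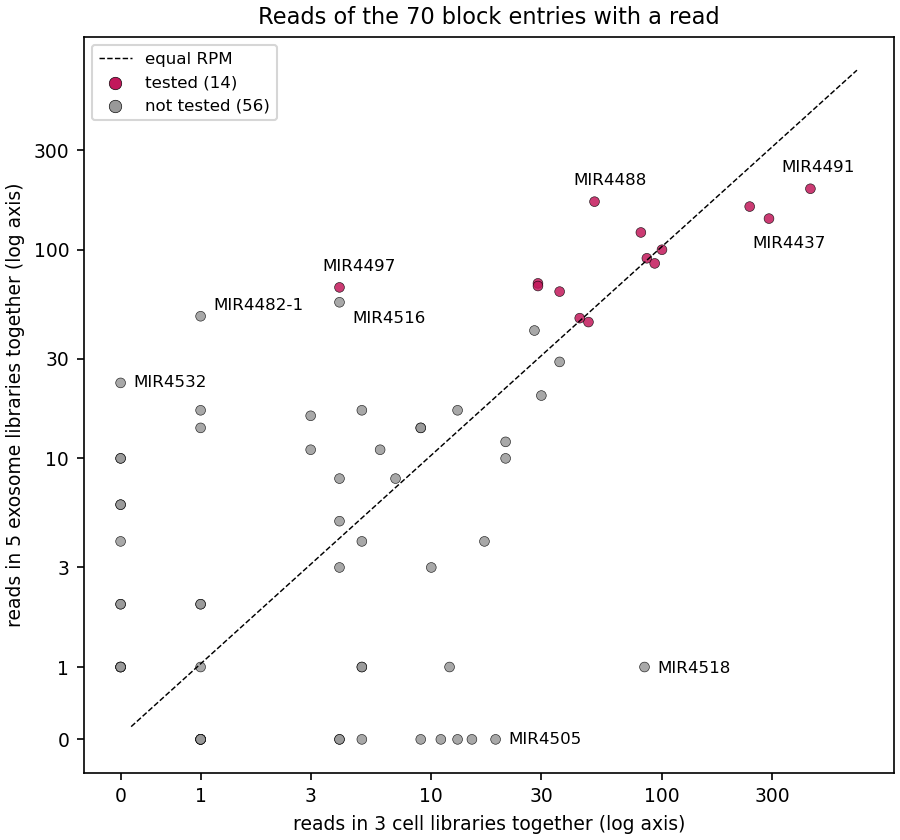
Reads of each of the 70 entries with a read, summed over 5 exosome libraries (vertical) and 3 cell libraries (horizontal), on log axes with zeros at the edge; tested entries are magenta and the dashed line marks equal RPM. MIR4518 and MIR4505 lie on the cell side and MIR4532, MIR4482-1, MIR4497 and MIR4516 on the exosome side.

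In GENCODE 29, 108 entries could be placed on the chromosome the files give; 53 lie within a gene on the same strand, 46 of them in introns alone and 7 touching an exon, 21 lie only opposite a gene, and 34 lie between genes. Hairpin lengths in the files run from 43 to 115 bases. Whether the counting used strand is not given in the sources used here, so reads of an entry and of a gene opposite to it cannot be told apart. Reads were counted over the hairpin feature, so RNA of a gene on the same strand cannot be told apart there either.

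As a check of the source, 3 of 6 miRNAs fixed as B-cell markers had a row (MIR150, MIR181A1 and MIR21), and together they held 5289 to 22053 RPM in exosomes and 7159 to 38533 in cells. Most of this was MIR21, which many cell types express (mean log2 CPM 13.83, against 8.37 for MIR181A1 and 4.23 for MIR150), so the sum says little of a B-cell source. Of 8 miRNAs of liver, stroma, endothelium and platelets, myeloid and red cells, 6 had a row, none was at 0 in all libraries, and they summed to 101 to 349 RPM in exosomes and 28.7 to 32.2 in cells. Their part in the exosome values of MIR4497 and MIR4516 was not tested.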

How the data were processed

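Each library has 1 deposited table of raw read counts over non-coding RNA features, in featureCounts layout per the file headers. Tools listed in the submitters' processing notes are DESeq2 1.8.2, featureCounts, STAR and cutadapt 1.1, with GRCh37 as the build; how multi-mapping reads were treated is not given in the sources used here. Per the labels' protocols, libraries were made from RNA under 200 nt. From the counts, edgeR 4.0.16 (R 4.3.3) compared 5 exosome with 3 cell libraries by its quasi-likelihood test with robust dispersions, TMM factors and the default low-count filter (minimum 10); features were called at a Benjamini-Hochberg adjusted p under 0.05. A standard error is the log2 value divided by the square root of F. On simulated data of 1178 features for this comparison, 39% of log2 changes of 2 and 94% of changes of 4 were recovered. The changed features were drawn from all tested features, whose median log2 CPM was 2.64 against -0.51 in the block. Recovery at the block's abundance was not measured. Alternatives used DESeq2 1.42.0, limma 3.58.1, other scalings, other filters and libraries left out. Folding used RNAfold 2.7.2. Of the 109 entries, 104 matched a RefSeq symbol. Named entries were those called, the 6 most abundant in each group and 8 fixed by name, 6 of which are not analysed here. The members and lists were chosen with earlier results of these data known.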

Additional observations from a re-analysis of the deposited data

Results flagged for a closer look

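In 2 of 16 sets of 5 exosome values, 1 library lay far from the others by Dixon's criterion. Chance meets it in about 1 of 20 sets of normally distributed values. That rate was not checked for CPM values, and both flags fall on exosome 5, so they are not separate events. MIR4437 stood at 4.61 CPM in exosome 5, with the next library at 0.909, and MIR4476 at 2.73 CPM in exosome 5, with the next at 0.675. Exosome 5 also had the lowest TMM factor (0.524), by which its CPM values are scaled. Without exosome 5 the log2 value of MIR4437 was -2.39 (edgeR adjusted p = 0.0225), and MIR4476 did not pass the low-count filter. With total count scaling the log2 values were -0.90 and 1.27.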

How the results depend on the processing

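Few reads limit most of the block: 95 of 109 entries were below the filter, and low depth was not separated from low abundance. With all features, 241 were higher and 263 lower; leaving out 1 library gave 181 to 271 higher and 190 to 262 lower, and miRNAs fitted alone gave 37 and 13 of 365. Against 1 entry of the block higher, no low-count filter gave 4, and 0 were higher at 50 counts in 3 libraries (3 entries tested) and without exosome 5 and cell 2 together, a setting added after seeing the data (MIR4497 at 2.97, adjusted p = 0.0554). Leaving out 1 library gave 0 to 1 higher and 0 to 2 lower. Against 0 lower (edgeR; 1 entry at an unadjusted p under 0.05), DESeq2 gave 1, no filter 5, and leaving out exosome 5 and cell 2 together 1. The value of MIR4497 was positive in all 17 alternatives that tested it (2.97 to 4.95). Its call was lost without cell 1 (3.60) or cell 2 (3.22). Values ran from -1.91 to -1.14 for MIR4491, from -1.41 to -0.46 for MIR4473 and from 1.03 to 1.90 for MIR4488. Signs turned for MIR4437 without cell 2 (0.10; -2.39 without exosome 5), MIR4476 with limma-voom (-0.51; 2.22 without cell 2), MIR4449 without cell 1 (-0.27) or cell 2 (-0.11; 1.34 without cell 3), MIR4446 without cell 2 (0.16; -1.08 without cell 1) or without exosome 5 and cell 2 (0.46), MIR4466 with total count scaling (0.15), without exosome 3 (0.15), cell 2 (0.58; -0.89 without cell 1) or exosome 5 and cell 2 (0.62), and MIR4487 without exosome 3 (0.046; -0.94 without exosome 1). The cause was not tested.

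Of miRNA reads alone the block held 202 reads per 1000000 in exosomes and 196 in cells; entries with at least 10 reads averaged 12.2 and 15. Replicate numbers were not taken as pairs. Deviations of same-numbered exosome and cell libraries correlated at 0.10, -0.04 and 0.09, and those of differently numbered ones at -0.16 to 0.06. With so few libraries these values cannot show whether the numbers pair the samples. A replicate block over exosomes and cells 1 to 3 called 173 features higher and 184 lower, and 0 entries of the block either way; the same 6 libraries without the block, added after seeing the data, called 183 and 216, with 0 entries higher and 1 lower (MIR4437). MIR4497 was not tested in those 6 libraries.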

Other observations

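A few entries outside the naming rule had 10 or more reads in both groups and stayed untested or uneven. MIR4493, opposite an intron of GRAMD1B, had 29 reads in exosome 1 and 26 in cell 3 and at most 6 in any other library. MIR4517, in NFATC2IP, had 10 reads in exosome 1 and none in the other exosomes, and 4, 0 and 17 in cells 1 to 3. MIR4463 had reads in exosomes 2, 3 and 5 (9, 6 and 14), none in exosomes 1 and 4, and 9, 12 and 15 in cells 1 to 3. These entries were chosen after their values were seen.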
